A study of Mus musculus with 12 samples.

Results

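Genes of cholangiocytes, liver progenitors and other epithelia, 10 of the 17007 genes in the deposited expression values, were followed across normal liver and c-MYC-driven liver tumors. They were *Krt19*, *Krt7*, *Krt23*, *Sox9*, *Sox4*, *Epcam*, *Cd24a*, *Spp1*, *Prom1* and *Sfn*. The 10 symbols were picked because some of them were lower in tumors of mice given an mTOR inhibitor than in tumors of mice given vehicle, so each drug against vehicle is given here as a description and not as a test. RNA-Seq had been performed on 12 mice in 4 groups of 3. Normal livers (NL) were labelled wild type C57BL/6. The other 3 groups were hepatocellular carcinomas (HCC) labelled *c-MYC/MCL1/RictorKO Tsc2KO*, raised by hydrodynamic injection in mice with floxed *Rictor* and *Tsc2* (fl/fl for both), in which plasmids for c-MYC, MCL1 and Cre are pushed through the tail vein and are taken up by hepatocytes. All 3 tumor groups, vehicle included, therefore shared the oncogenes and the deletion of *Rictor* and *Tsc2* in the cells that took up the plasmids, and only those cells. The mice received vehicle, MLN0128 at 1 mg/kg/day or everolimus at 1 mg/kg/day by gavage on 6 days a week for 3 weeks from day 6, and were sacrificed 3.7 weeks after injection, as labelled. The sources differ on the length of treatment before RNA-Seq, since the text of the study describes a course of days rather than weeks for these tumors, so the drug values below are for a course of uncertain length. Ages were not given in the sources used here. MLN0128 blocks the mTOR kinase itself, whereas everolimus, an analog of rapamycin, inhibits mTORC1. Tumor and normal liver differed in genotype, plasmids and gavage at the same time, and these cannot be told apart.

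Cholangiocytes are the epithelial cells that line the bile ducts. They and hepatocytes arise from a shared fetal precursor, the hepatoblast, and in injured or malignant liver some cells again carry genes of the duct and the precursor. Keratins 19, 7 and 23 form intermediate filaments of simple epithelia, of which K19 and K7 mark ducts in normal liver. SOX9 and SOX4 are transcription factors of bile duct formation. EPCAM, CD24 and prominin-1 are surface proteins used to sort progenitor and tumor cells, osteopontin (*Spp1*) is a secreted ligand of integrins and CD44, and stratifin (*Sfn*) is the epithelial member of the 14-3-3 adaptor family.

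Promoter windows of 250 bases before the transcription start were taken from RefSeq on GRCm38.p6, where 7 of the 10 genes had an entry, with 9 windows in all. *Krt19*, *Sox9* and *Cd24a* had none. Windows are shown for a gene that stayed high in drug-treated tumors (*Sox4*), 2 genes that were high with vehicle and low with both drugs (*Epcam*, *Sfn*) and the most abundant gene (*Spp1*), each read 5′ to 3′ on the strand of the gene, with matches to a searched motif in capitals. The windows lay at chr13:28953700-28953949 (minus strand, *Sox4*), chr17:87635729-87635978 (plus strand, *Epcam*), chr4:133602169-133602418 (minus strand, *Sfn*) and chr5:104434861-104435110 (plus strand, *Spp1*).
Sox4 promoter: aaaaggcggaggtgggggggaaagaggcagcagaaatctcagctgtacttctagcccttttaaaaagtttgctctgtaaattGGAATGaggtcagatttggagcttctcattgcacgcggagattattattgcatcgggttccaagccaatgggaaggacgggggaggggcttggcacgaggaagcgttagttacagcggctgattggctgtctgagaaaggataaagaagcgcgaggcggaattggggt
Epcam promoter: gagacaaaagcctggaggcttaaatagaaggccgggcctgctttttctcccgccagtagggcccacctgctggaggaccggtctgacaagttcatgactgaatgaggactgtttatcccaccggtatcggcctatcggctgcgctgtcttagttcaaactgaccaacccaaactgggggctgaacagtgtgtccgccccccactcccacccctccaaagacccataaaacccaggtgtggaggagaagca
Sfn promoter: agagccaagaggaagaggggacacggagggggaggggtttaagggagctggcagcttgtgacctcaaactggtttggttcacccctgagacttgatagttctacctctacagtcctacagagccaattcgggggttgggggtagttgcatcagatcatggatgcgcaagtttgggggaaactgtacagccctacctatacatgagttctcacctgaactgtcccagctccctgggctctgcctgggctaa
Spp1 promoter: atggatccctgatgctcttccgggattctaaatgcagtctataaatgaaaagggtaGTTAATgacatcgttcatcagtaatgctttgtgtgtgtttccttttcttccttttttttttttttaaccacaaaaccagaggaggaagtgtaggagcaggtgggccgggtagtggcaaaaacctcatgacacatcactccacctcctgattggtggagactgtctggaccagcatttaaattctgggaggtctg
The motifs searched on both strands were CACGTG (E-box of MYC), TGACTCA (AP-1), CATTCC (TEAD), ACAAT (SOX core), GTGGGAA (RBPJ, the Notch factor) and GTTAAT (part of the HNF1 site). In *Sox4* the capitals mark CATTCC on the opposite strand, read there as GGAATG, beginning at position -168 counted from the start, and in *Spp1* they mark GTTAAT at -194. The *Epcam*, *Sfn* and *Krt7* windows held none of the 6 motifs. The *Krt23* window held CACGTG at -169 and ACAAT at -90, and 1 of the 2 *Prom1* windows held TGACTCA at -88. Among all 32851 RefSeq windows of the same length, 6.02% held CACGTG, 4.46% TGACTCA, 12.6% CATTCC, 27.7% ACAAT, 5.42% GTGGGAA and 6.43% GTTAAT, and each of these was in 1 or 0 of the 9 windows here. Base composition differed between the genes, with G and C making up 66% of the *Krt7* window, 56.4% of that of *Epcam*, 54.4% of that of *Sfn*, 50.8% of that of *Sox4* and 43.6% of the printed window of *Spp1*.

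Gene positions below are those of GENCODE M21 on GRCm38, and FPKM cover the exons. Expression is given in FPKM, the authors' fragments per length of transcript and library size, which allows levels of different genes to be compared per length. Reads recovered from the FPKM and exon lengths numbered 17164792 to 25179899 per library, so that 3 reads of a 2 kb transcript gave between 0.0495 and 0.144 FPKM. Summed FPKM of 10 hepatocyte markers, led by albumin, ranged from 86108 to 105837 across normal livers and from 2243 to 8523 across tumors. In tissue of this kind, fewer cells of a type and less RNA per cell cannot be told apart. Some libraries stood apart. MLN0128 replicates 1 and 2 held *Xist* at 191 and 155 FPKM and 4 Y-linked genes at 0, unlike the other 10 libraries. This is the pattern of females in those libraries and of males in the others. The labels give no sex, and the study states that both sexes were used. Sex is thus partly mixed with the drug in every comparison with MLN0128. Everolimus replicate 2 was the highest of its group for 10 of the 10 genes, while it was the highest for 31.4% of all genes tested, and its hepatocyte markers summed to 8523 FPKM against 3690 and 3480 in the other everolimus tumors. Its macrophage markers summed to 284 FPKM against 121 and 139, and its endothelial markers to 26.0 against 16.7 in each of the others. Vehicle replicate 3 was the highest of its group for 7 of the 10 genes and MLN0128 replicate 3 for 6, both beside 31.4% of all genes. Whether these differences have a part in the values below was not tested.

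**Figure D1:**
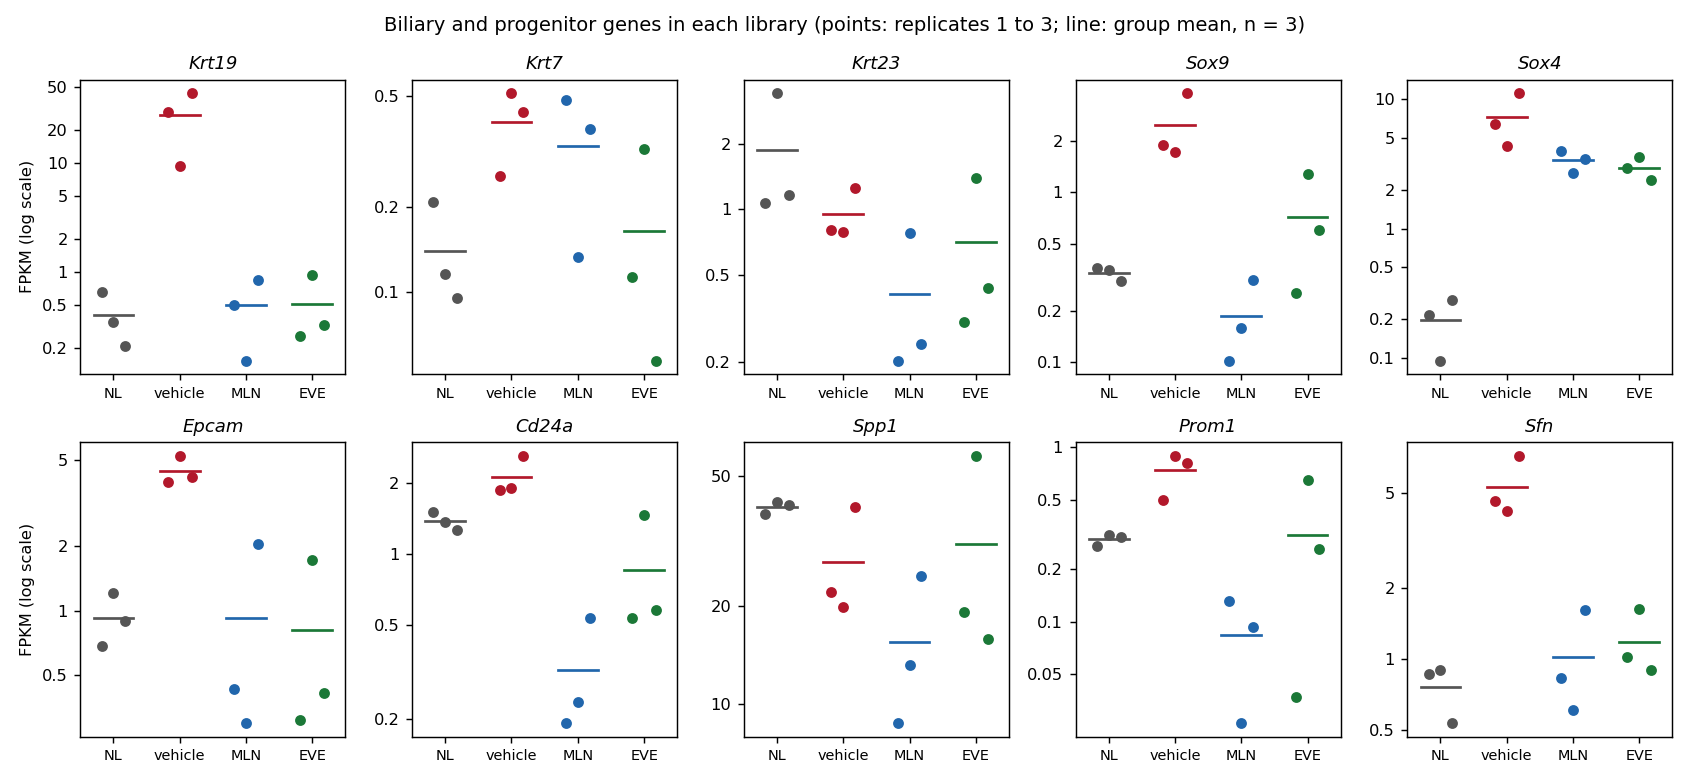
FPKM of the 10 genes on a log axis in each library, with points for replicates 1 to 3 from left to right, a line for the arithmetic mean of each group (n = 3), MLN for MLN0128 and EVE for everolimus. *Krt19* lay between 9.49 and 44.0 FPKM in vehicle-treated tumors and below 1 elsewhere, *Sox4* was higher in all 9 tumors than in normal liver, and everolimus replicate 2 was the highest everolimus library in every panel.

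*Krt19* (ENSMUSG00000020911.14, chr11:100140810-100148665, minus strand) was the gene that differed most between vehicle-treated tumors and the other groups. It was at 0.650, 0.342 and 0.207 FPKM in the NL livers, 29.6, 9.49 and 44.0 in vehicle tumors, 0.493, 0.152 and 0.834 in MLN0128 tumors and 0.257, 0.944 and 0.325 in everolimus tumors. All 3 vehicle-treated tumors stood above the other 9 libraries, and the drug-treated tumors and the normal livers overlapped. The mean with vehicle, 27.7 ± 17.3 FPKM (SD, n = 3), was 69.3 times that of normal liver, 56.2 times that of MLN0128 and 54.4 times that of everolimus. Without MLN0128 replicate 3 the MLN0128 ratio was 85.9, and without everolimus replicate 2 the everolimus ratio was 95.2. The values rest on 371 to 1902 recovered reads per vehicle-treated tumor and 4 to 53 per library elsewhere. On the log2(FPKM + 1) scale, on which fold changes of low genes are understated, the difference was 4.13 (SE 0.420) for vehicle against normal liver, -4.05 (SE 0.420) for MLN0128 against vehicle and -4.04 (SE 0.420) for everolimus against vehicle. Both drug comparisons share the same vehicle-treated tumors, here and for every gene below. *Krt19* is also expressed by mesothelium, the lining of the liver surface. The 5 other mesothelial markers had sums of 0.303 to 1.08 FPKM with vehicle, against 2.20 to 5.25 across normal livers, 0.539 to 3.98 for MLN0128 and 1.10 to 1.51 for everolimus. Their part in the *Krt19* values was not tested.

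In vehicle-treated tumors *Krt7* and *Krt23* were far less abundant than *Krt19*. *Krt23* had a higher mean than *Krt19* in normal liver (1.88 against 0.4 FPKM) and with everolimus (0.71 against 0.509). Keratins outside the followed genes could be more abundant than *Krt19*. In vehicle tumors *Krt8* was at 312, 327 and 391 FPKM and *Krt18* at 149, 176 and 181. *Krt7* (ENSMUSG00000023039.17, chr15:101411043-101430313, plus strand), the usual filament partner of the ductal type I keratins, was at 0.210, 0.116 and 0.0952 FPKM in the NL livers, 0.258, 0.511 and 0.438 in vehicle tumors, 0.484, 0.133 and 0.380 in MLN0128 tumors and 0.113, 0.323 and 0.0569 in everolimus tumors. The vehicle-treated tumors lay above the normal livers, but both drug groups overlapped them, and with 7 to 97 reads per library the gene did not pass the filter of 0.5 FPKM in at least 3 libraries and has no fitted value. *Krt23* (ENSMUSG00000006777.7, chr11:99477974-99493137, minus strand), a type I keratin, was at 1.07, 3.42 and 1.16 FPKM in the NL livers, 0.805, 0.788 and 1.26 in vehicle tumors, 0.202, 0.779 and 0.240 in MLN0128 tumors and 0.304, 1.39 and 0.436 in everolimus tumors. Vehicle-treated tumors and normal livers overlapped, and the MLN0128 group lay below both, by as little as 0.779 against 0.788 FPKM. The log2 difference of *Krt23* was -0.48 (SE 0.302) for vehicle against normal liver, -0.49 (SE 0.302) for MLN0128 against vehicle and -0.23 (SE 0.302) for everolimus against vehicle. Without normal liver replicate 2, the library at 3.42 FPKM, the first of these was -0.12. The everolimus value ranged from -0.066 without everolimus replicate 1 to -0.50 without everolimus replicate 2.

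*Sox9* (ENSMUSG00000000567.5, chr11:112782224-112787760, plus strand), which directs duct formation and is induced in hepatocytes that take on ductal features, followed *Krt19* at a lower level. It was at 0.359, 0.351 and 0.301 FPKM in the NL livers, 1.90, 1.74 and 3.85 in vehicle tumors, 0.102, 0.159 and 0.303 in MLN0128 tumors and 0.256, 1.29 and 0.602 in everolimus tumors. All vehicle-treated tumors stood above all other libraries, the MLN0128 group ended at the lower edge of the normal livers, and the everolimus group spread around them. The mean of 2.50 ± 1.17 FPKM (SD, n = 3) with vehicle was 7.41 times that of normal liver, 13.3 times that of MLN0128 and 3.49 times that of everolimus. The log2 difference was 1.34 for vehicle against normal liver, -1.51 for MLN0128 against vehicle and -1.02 for everolimus against vehicle (SE 0.232 each). Without everolimus replicate 2 the everolimus value was -1.25 and the ratio of means 5.82.

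*Sox4* (ENSMUSG00000076431.4, chr13:28948919-28953713, minus strand) stood apart from the other 9 genes, because it remained far above normal liver in drug-treated tumors. It was at 0.213, 0.0946 and 0.280 FPKM in the NL livers, 6.45, 4.35 and 11.2 in vehicle tumors, 3.97, 2.70 and 3.43 in MLN0128 tumors and 2.93, 3.56 and 2.39 in everolimus tumors. The 4 groups gave 3 tiers, with the normal livers lowest, the drug groups overlapping each other in the middle and the vehicle-treated tumors highest. Group means were 0.196 ± 0.0939, 7.33 ± 3.51, 3.37 ± 0.637 and 2.96 ± 0.586 FPKM (SD, n = 3 each), so that vehicle was 37.4 times, MLN0128 17.2 times and everolimus 15.1 times normal liver. The log2 difference was 2.72 for vehicle against normal liver, -0.86 for MLN0128 against vehicle and -1.0 for everolimus against vehicle (SE 0.246 each). Without vehicle replicate 3 the MLN0128 value was -0.54. *Sox4* has 1 exon, and its values rest on 5 to 14 reads per normal liver and 265 to 1251 per tumor.

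The surface proteins were highest with vehicle, and *Epcam* was the most abundant of them there. *Epcam* (ENSMUSG00000045394.9, chr17:87635979-87651129, plus strand), an adhesion molecule of ducts and hepatoblasts, was at 0.682, 1.20 and 0.893 FPKM in the NL livers, 3.96, 5.23 and 4.17 in vehicle tumors, 0.431, 0.299 and 2.03 in MLN0128 tumors and 0.311, 1.72 and 0.413 in everolimus tumors. The vehicle group did not overlap any other group, and in each drug group 1 library, MLN0128 replicate 3 and everolimus replicate 2, stood above all normal livers while the others stood below them. The log2 difference of *Epcam* was 1.5 for vehicle against normal liver, -1.61 for MLN0128 against vehicle and -1.66 for everolimus against vehicle (SE 0.324 each). With MLN0128 replicate 3, the MLN0128 library without *Xist*, as the single MLN0128 library, the value was -0.84, and without everolimus replicate 2 the everolimus value was -2.0.

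*Cd24a* (ENSMUSG00000047139.9, chr10:43578284-43584265, plus strand), a small glycosylated surface protein, was at 1.51, 1.37 and 1.26 FPKM in the NL livers, 1.86, 1.91 and 2.61 in vehicle tumors, 0.191, 0.236 and 0.535 in MLN0128 tumors and 0.534, 1.46 and 0.576 in everolimus tumors. All vehicle-treated tumors exceeded all normal livers, all MLN0128-treated tumors were below all normal livers, and everolimus replicate 2 alone of its group reached the normal range. The vehicle mean was 1.54 times that of normal liver, 6.63 times that of MLN0128 and 2.48 times that of everolimus. These ratios were 9.96 without MLN0128 replicate 3 and 3.83 without everolimus replicate 2. *Prom1* (ENSMUSG00000029086.15, chr5:43993620-44102032, minus strand), a protein of membrane protrusions, was at 0.271, 0.316 and 0.307 FPKM in the NL livers, 0.501, 0.893 and 0.814 in vehicle tumors, 0.132, 0.0262 and 0.0932 in MLN0128 tumors and 0.0369, 0.649 and 0.263 in everolimus tumors. Its order was the same as that of *Cd24a* between vehicle, normal liver and MLN0128, with no overlap among these 3 groups, and the everolimus group spanned from below the normal livers into the vehicle range. On the log2 scale *Prom1* differed by 0.41 between vehicle and normal liver, by -0.67 between MLN0128 and vehicle and by -0.42 between everolimus and vehicle (SE 0.152 each), and *Cd24a* by 0.39, -1.24 and -0.78 in the same order (SE 0.181 each). Without everolimus replicate 1 the everolimus value of *Prom1* was -0.26.

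*Spp1* was the most abundant of the 10 genes in 10 of the 12 libraries, and *Krt19* in the other 2, which were vehicle replicates 1 and 3. *Spp1* (ENSMUSG00000029304.14, chr5:104435118-104441050, plus strand), whose protein binds integrins and CD44, was at 38.3, 41.6 and 40.7 FPKM in the NL livers, 22.0, 19.8 and 40 in vehicle tumors, 8.74, 13.2 and 24.6 in MLN0128 tumors and 19.2, 57.5 and 15.8 in everolimus tumors. In the deposited FPKM it was not raised with vehicle, where 2 tumors lay below and 1 within the range of normal liver. All MLN0128-treated tumors lay below all normal livers but overlapped the vehicle group, and the everolimus group ran from below the lowest vehicle-treated tumor to above the highest normal liver. The log2 difference was -0.61 for vehicle against normal liver, -0.82 for MLN0128 against vehicle and 0.01 for everolimus against vehicle (SE 0.453 each). Without everolimus replicate 2 the last value was -0.55, and with MLN0128 replicate 3 as the single MLN0128 library the MLN0128 value was -0.08. Leaving out vehicle replicate 3 or MLN0128 replicate 1 gave -0.52 and -0.5 for MLN0128.

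*Sfn* (ENSMUSG00000047281.3, chr4:133600556-133602168, minus strand), the 14-3-3 protein that holds back mitotic entry after damage, was at 0.862, 0.9 and 0.535 FPKM in the NL livers, 4.63, 4.21 and 7.21 in vehicle tumors, 0.829, 0.611 and 1.61 in MLN0128 tumors and 1.02, 1.62 and 0.896 in everolimus tumors. The vehicle group stood above all other libraries and the remaining groups overlapped one another. The vehicle mean of 5.35 ± 1.62 FPKM (SD, n = 3) was 6.99 times that of normal liver, 5.26 times that of MLN0128 and 4.54 times that of everolimus. The log2 difference was 1.82 for vehicle against normal liver, -1.66 for MLN0128 against vehicle and -1.53 for everolimus against vehicle (SE 0.216 each).

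Counted over the 10 genes, 8 had all vehicle-treated tumors above all normal livers, which was so for 39% of the 14397 genes tested. The exceptions were *Krt23* and *Spp1*. All MLN0128-treated tumors lay below all vehicle-treated tumors for 8 of the 10 genes (23.4% of all genes), with *Krt7* and *Spp1* as exceptions, and all everolimus-treated tumors for 6 (14.8% of all genes), without *Krt7*, *Krt23*, *Spp1* and *Prom1*. Both held for the same 6 genes, *Krt19*, *Sox9*, *Sox4*, *Epcam*, *Cd24a* and *Sfn* (10.3% of all genes). Since the genes were picked on these differences, nothing is read from the counts. Leaving out everolimus replicate 2, the highest everolimus library for all 10 genes, leaves 2 tumors to clear. The everolimus count was then 10. The share of all genes was not computed for 2 tumors, so this count too has no reading. Set against normal liver, all MLN0128-treated tumors were below for *Krt23*, *Cd24a*, *Spp1* and *Prom1* (36.3% of all genes) and above for *Sox4* (38.8% of all genes). All everolimus-treated tumors were above for *Sox4* (38.5% of all genes) and below for 0 of the 10 (35.4% of all genes). The positions and ratios of all 3 tumor groups against normal liver, here and for each gene above, are those of the deposited FPKM. They depend on the scaling between libraries. Under rescaling to TPM, the median log2 difference of all genes from normal liver shifted by 0.94 for vehicle, 1.15 for MLN0128 and 0.91 for everolimus. The vehicle count of 8 was then 9, with no share of all genes computed. The positions of drug-treated tumors were not counted under that scaling. Across 22 alternatives the vehicle difference from normal liver ran from -0.81 to 0.25 for *Krt23* and from -0.91 to 0.56 for *Spp1*, so the direction of these exceptions depended on the processing.

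**Figure D2:**
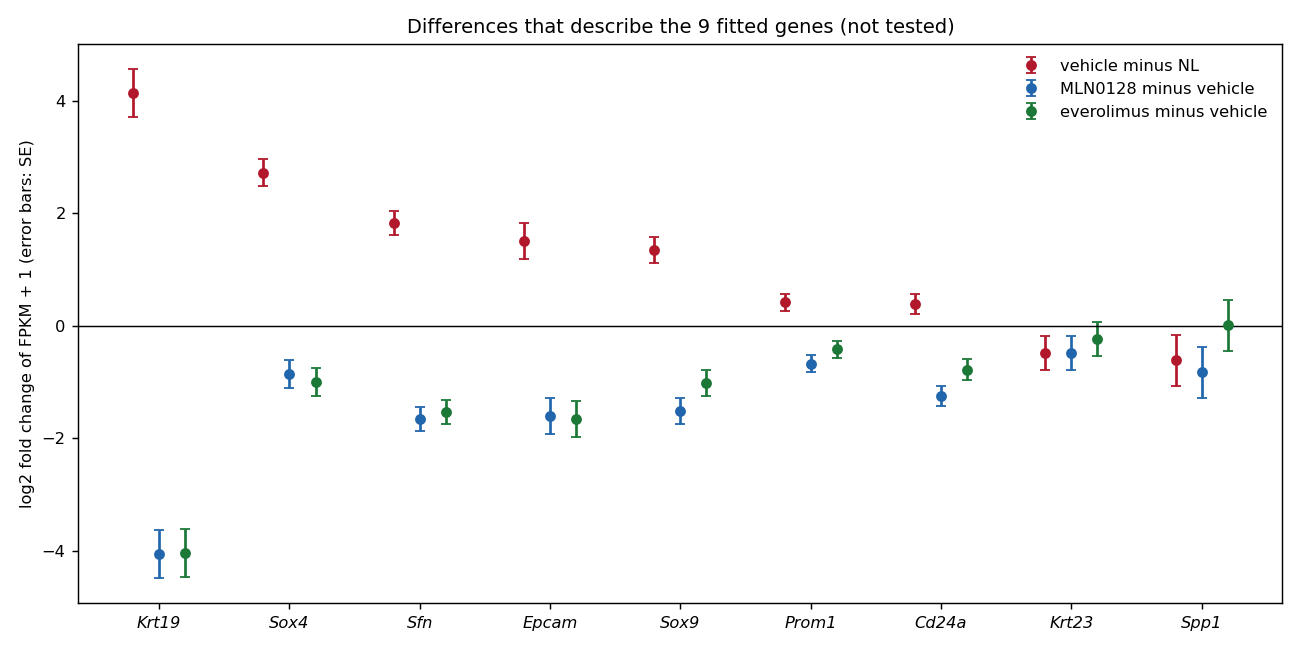
Differences in log2(FPKM + 1) for the 9 genes with a fitted value, with SE as error bars (3 libraries in each group), for vehicle minus normal liver (NL), MLN0128 minus vehicle and everolimus minus vehicle. *Krt19* had the widest differences (4.13, -4.05 and -4.04), and *Krt23* and *Spp1* lay below 0 in vehicle against normal liver.

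To ask whether the genes differed between tumor and normal liver, the mean of the 3 tumor groups was set against normal liver. The vehicle-treated tumors, on which the genes were picked, enter this mean with the same weight as each drug group, so the drug groups are given on their own beside it. *Sox4* rose. It was higher by 2.10 on the log2 scale (SE 0.201, adjusted p = 3.04e-05, limma's treat with a minimum fold of 1.5, Benjamini-Hochberg over all 14397 genes), with 9 of 9 tumors above all 3 normal livers, and by 1.86 in the MLN0128 group and 1.72 in the everolimus group alone (SE 0.246 each). It was called in all 24 alternatives, with adjusted p from 7.3e-07 to 0.000472. *Krt19* was higher by 1.44 (SE 0.343) and also passed treat, with an adjusted p of 0.0407 by limma after Benjamini-Hochberg correction. That value came from the vehicle group, at 4.13, while the MLN0128 and everolimus groups differed from normal liver by 0.08 and 0.09 (SE 0.420 each), so it is no support beyond the choice of the gene. The call was lost in 11 of 24 alternatives. These included leaving out any 1 of normal liver replicates 1, 2 and 3 (adjusted p = 0.0575, 0.102 and 0.134), vehicle replicate 1 (0.0641), MLN0128 replicate 1 (0.0578), MLN0128 replicate 3 (0.0611) or everolimus replicate 2 (0.0632), all from limma's treat after Benjamini-Hochberg correction.

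The other 7 genes with a fitted value were not called by treat. *Sfn* differed by 0.76 (95% interval 0.38 to 1.15), *Sox9* by 0.49 (0.08 to 0.91), *Epcam* by 0.41 (-0.17 to 0.99) and *Prom1* by 0.05 (-0.22 to 0.32). *Cd24a* differed by -0.29 (-0.61 to 0.04), *Krt23* by -0.72 (-1.26 to -0.18) and *Spp1* by -0.88 (-1.69 to -0.07). Without a fold threshold, limma (moderated statistics, Benjamini-Hochberg) called *Krt23* and *Spp1* lower (adjusted p = 0.0188 and 0.0463). The *Krt23* difference was -0.37 without normal liver replicate 2. The same test called *Sox4*, *Krt19*, *Sfn* and *Sox9* higher, so that 4 of 9 genes were called higher and 2 lower, beside 40% and 36.3% of all genes. *Sfn*, like *Krt19*, had its difference mainly in the vehicle group, with 1.82 there against 0.17 with MLN0128 and 0.3 with everolimus, and *Sox9* had 1.34 there against -0.17 and 0.32. By treat, 2 of 9 genes were called higher and 0 lower, beside 17.9% and 19.6% of all genes tested. The 9 tumors and the normal livers separated for 1 of the 10 genes with the tumors above, and for 0 with the tumors below, beside 29.5% and 28.6% of all genes. *Sox9* and *Prom1* passed the filter on low values only through the vehicle group, with 3 of its libraries at 0.5 FPKM or more and 2 and 1 others. Their values here, the moderated call of *Sox9* included, are descriptions. The direction of *Cd24a* and *Spp1* depended on the scaling between libraries. When the FPKM were rescaled to TPM, the median log2 difference of all genes shifted by 0.99, the calls over all genes became 7827 higher and 1085 lower in place of 2578 and 2822, and *Cd24a* and *Spp1* came to 0.41 and 0.35, both still below the median of 1.07. *Sox4* was called higher under that scaling too.

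**Figure D3:**
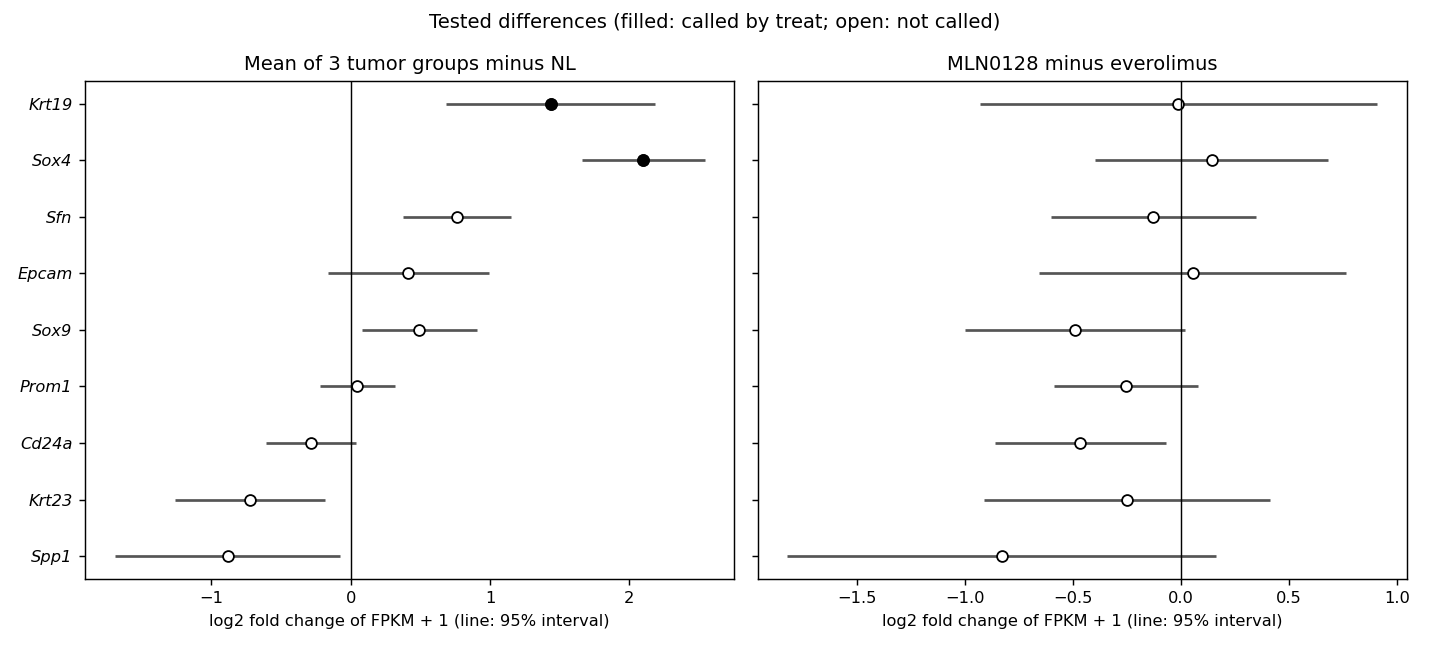
Tested differences in log2(FPKM + 1), with 95% intervals, for the mean of the 3 tumor groups minus normal liver (left, 9 against 3 libraries) and for MLN0128 minus everolimus (right, 3 against 3). Filled points are called by treat, which are *Sox4* (2.10) and *Krt19* (1.44, with the difference in the vehicle group) on the left and none on the right. *Sox9* and *Prom1* passed the filter on low values only through the vehicle group and are shown as descriptions.

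The drugs were compared directly. The vehicle-treated tumors do not enter these differences but enter their errors, since the spread was estimated over all 12 libraries, and for *Krt19* the SE was 0.420 in that fit and 0.225 with only the 6 drug libraries. No gene of the 9 was called between MLN0128 and everolimus by treat or the moderated test of limma, and 1, *Cd24a*, passed an unadjusted p under 0.05. Over all genes, treat called 0.00695% higher and 0.0347% lower with MLN0128, the moderated test 3.99% and 5.54%, and 27% passed an unadjusted p under 0.05. *Cd24a* differed by -0.47 on the log2 scale (95% interval -0.86 to -0.07, limma's moderated adjusted p = 0.125 after Benjamini-Hochberg correction), and MLN0128 was overlapped by the lowest everolimus tumor at 0.534 against 0.535 FPKM. The differences of the transcription factors were -0.49 for *Sox9* (-1.0 to 0.02) and 0.14 for *Sox4* (-0.40 to 0.68). The values of *Sox9* and *Prom1* are descriptions here too, since only the vehicle group carried these genes past the filter. *Krt19* differed by -0.01, with an interval of -0.93 to 0.91, and *Epcam* by 0.05 (-0.66 to 0.76), so that differences of more than 1.5-fold in either direction are not excluded for either. *Spp1* had the widest interval, -0.83 (-1.82 to 0.16), *Prom1* was at -0.26 (-0.59 to 0.08), *Krt23* at -0.25 (-0.91 to 0.41) and *Sfn* at -0.13 (-0.60 to 0.34). For 0 of the 10 genes did the MLN0128 and everolimus libraries separate, beside 12.5% of all genes with MLN0128 above and 15.2% with MLN0128 below. Without everolimus replicate 2 the values moved towards 0 for *Sox9* (-0.26), *Cd24a* (-0.24), *Spp1* (-0.27) and *Prom1* (-0.08). *Prom1* was at -0.41 without everolimus replicate 1 and *Spp1* at -0.51 without MLN0128 replicate 1.

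Other genes of the same tissues and pathways were then counted, by the same treat calls, from lists that do not contain the 10 genes. These lists were chosen with earlier results of these data known, so their counts beside the shares of all genes are descriptions. Differences are on the log2(FPKM + 1) scale. Of 20 other biliary genes tested, 4 were higher and 4 lower in the mean of the 3 tumor groups than in normal liver by treat (17.9% and 19.6% of all genes, also for the lists below), and their median difference was 0.25 beside 0.07 for all genes. The collagen receptor *Ddr1* (2.89, SE 0.342) and the tight junction gene *Cldn4* (2.83, SE 0.468) rose, and the water channel *Aqp1* (-2.83, SE 0.195) and the duct transcription factor *Onecut2* (-2.63, SE 0.220) fell, all 4 in every one of 24 alternatives. Under TPM the counts of the list were 12 higher and 2 lower, and 54.4% of all genes were higher and 7.54% lower, which is the background for every TPM count below. With MLN0128 against vehicle, 3 of the 20 were lower (1.65% of all genes) and 0 higher (0.479% of all genes). These were *Cldn4* (-3.65, SE 0.573), *Cldn7* (-1.96, SE 0.325) and *Tm4sf4* (-1.73, SE 0.267), a tetraspan membrane protein. The *Cldn7* and *Tm4sf4* calls were each lost in 9 of 24 alternatives, TPM and several left-out libraries among them, and that of *Cldn4* in 3. With MLN0128 replicate 3 as the single MLN0128 library the count was 0. That arm then held 1 sample, assumed to vary like the other groups, the share of all genes called lower was 0.22%, and the median of the list was -0.27 in place of -0.29, so the count is no measure of a changed difference. With everolimus 1 of the 20 was lower (0.57% of all genes), again *Cldn4* (-4.02, SE 0.573), and 3 were without everolimus replicate 2 (0.676% of all genes). *Cldn4* was at 0.102, 0.0999 and 0 FPKM in the NL livers, 24.1, 79.5 and 42.6 in vehicle tumors, 2.27, 1.09 and 5.50 in MLN0128 tumors and 0.262, 5.44 and 1.55 in everolimus tumors. The drug-treated tumors stayed above all normal livers and far below all vehicle-treated tumors.

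Among 12 other genes of ductular reactions and liver progenitors, 4 were higher in the tumors and 1 lower, with a median difference of 0.79 beside 0.07 for all genes, and under TPM 10 were higher and 1 lower. They were led by the receptor gene *Igdcc4* (3.82, SE 0.0889), the TWEAK receptor *Tnfrsf12a* (2.13, SE 0.117), the oncofetal glypican *Gpc3* (1.84, SE 0.242) and the growth factor midkine, *Mdk* (0.95, SE 0.152), whose call was lost in 12 of 24 alternatives. With MLN0128, 3 of the 12 were lower than with vehicle, namely *Mdk* (-2.30, SE 0.187), *Tnfrsf12a* (-2.13, SE 0.143) and *Gpc3* (-2.02, SE 0.297), whose call was lost in 5 of 24 alternatives (1.65% of all genes were lower). The list as a whole was not lower, since 7 of the 12 had a positive and 5 a negative difference and the median was 0.04. With everolimus 1 was lower, *Mdk* (-2.38, SE 0.187), beside 0.57% of all genes, and the median was -0.12. *Mdk* was at 0.490, 0.685 and 0.579 FPKM in the NL livers, 6.45, 8.10 and 9.76 in vehicle tumors, 0.718, 0.638 and 1.17 in MLN0128 tumors and 0.320, 0.898 and 1.06 in everolimus tumors, so that, like *Krt19*, it was high in the vehicle group and overlapped normal liver in both drug groups. *Igdcc4* was at 10.1 FPKM or more in all 9 tumors and at 0.067 or less in normal liver.

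Of 21 other epithelial junction and protease genes, 7 were higher and 1 lower in the tumors (12 and 0 under TPM). *St14*, the protease matriptase, differed by 2.44 (SE 0.243) and the fetal claudin *Cldn6* by 2.24 (SE 0.229), while *Cldn2*, a claudin that forms paracellular channels, differed by -2.10 (SE 0.282). With MLN0128 3 of the 21 were lower than with vehicle and with everolimus 2, and 0 were higher with either, beside 1.65% and 0.57% of all genes lower and 0.479% and 0.0347% higher. *Cldn6* (-2.98, SE 0.281) and the tight junction gene *Marveld3* (-1.77, SE 0.155) fell with MLN0128. With everolimus *Marveld3* (-1.68, SE 0.155) fell, and 4 of the 21 were called lower without everolimus replicate 2 (0.676% of all genes). The remaining call with each drug was the matriptase inhibitor *Spint1* (-1.80 and -1.73, SE 0.226 each). It passed the filter on low values only through the vehicle group, with 1 other library at 0.5 FPKM or more, so these values are descriptions, and the everolimus call was lost in 8 of 24 alternatives. *Marveld3* was at 0.875, 0.552 and 0.759 FPKM in the NL livers, 3.65, 3.89 and 3.14 in vehicle tumors, 0.343, 0.243 and 0.433 in MLN0128 tumors and 0.161, 0.815 and 0.367 in everolimus tumors. The vehicle group did not overlap any other. The 21 genes had a median difference of -0.76 under MLN0128 and -0.67 under everolimus, beside -0.01 and 0.03 for all genes. With MLN0128 replicate 3 as the single MLN0128 library 0 of the 21 were called with MLN0128, beside 0.22% of all genes lower, and the median was -0.46. The simple-epithelial keratin *Krt8*, which hepatocytes also make, was at 173, 138 and 505 FPKM with MLN0128 and 312, 327 and 391 with vehicle, so that MLN0128 replicate 3 was the highest of all 12 libraries and its fellows were below the vehicle group.

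**Figure D4:**
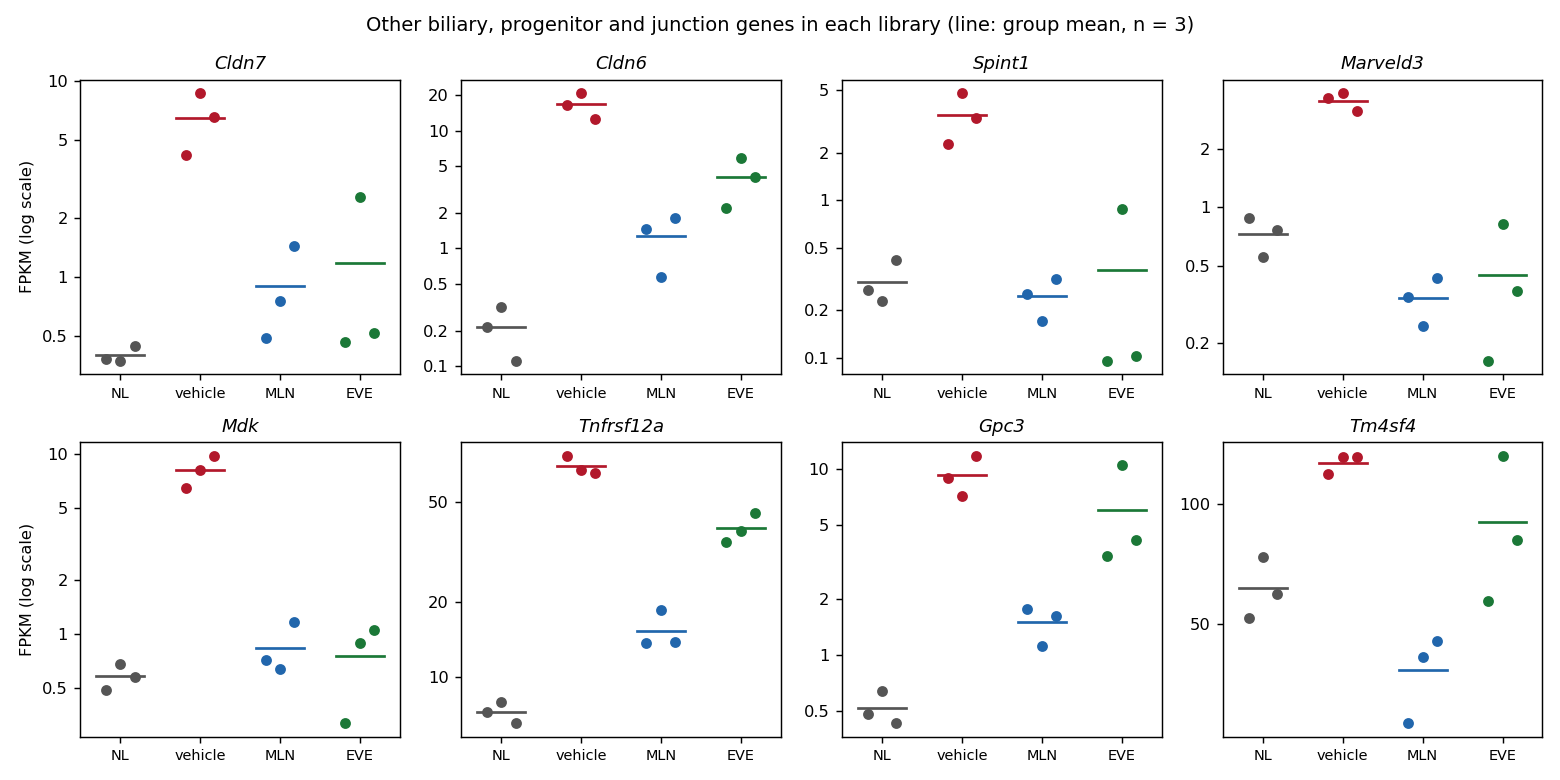
FPKM on a log axis in each library for 8 of the 9 biliary, progenitor and junction genes that were called lower with MLN0128 than with vehicle (*Cldn4*, listed at 0 in a normal liver, is left out), with points for replicates 1 to 3 from left to right and a line for the arithmetic mean of each group (n = 3). In every panel the 3 vehicle-treated tumors stand above the 3 MLN0128-treated tumors, and everolimus replicate 2 overlaps the vehicle group for *Gpc3* (10.4 FPKM) and *Tm4sf4* (132 FPKM).

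In the signaling pathways that direct duct formation, 0 genes were called with a drug by treat, and with at most 1.65% of all genes called in either direction a list of this size would hold few calls. Of 16 Notch genes, 3 were higher and 1 lower in the tumors than in normal liver. The ligand *Jag2* (3.53, SE 0.254) and the receptors *Notch1* (1.76, SE 0.156) and *Notch3* (1.01, SE 0.101) rose, and the Notch-modifying enzyme *Lfng* fell by 1.10 (SE 0.164), a call lost under TPM, with plain library totals and without normal liver replicate 1. With TPM 11 of the 16 were higher and 0 lower. Against vehicle, 0 of 16 were called with MLN0128 or everolimus, with medians of 0.09 and 0.10. With MLN0128, 1 was called higher under TPM (2.84% of all genes). The count was also 1 by voom on recovered reads with the authors' scaling (1.97% of all genes) and with plain library totals (3.23% of all genes). *Notch1* was at 2.93, 3.07 and 4.26 FPKM in vehicle tumors, 9.43, 9.80 and 7.17 in MLN0128 tumors and 7.87, 6.14 and 4.61 in everolimus tumors, above all vehicle-treated tumors in every drug-treated tumor. Of 20 genes of the YAP/TAZ pathway, 3 were higher and 2 lower in the tumors (13 and 0 under TPM) and 0 were called with either drug. *Nt5e* (2.51), *Tead1* (1.60) and *Nf2* (1.14) rose and the kinase *Lats2* fell by 1.13, a call lost under TPM.

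Relatives and receptors of the 10 genes gave few calls. Of 9 osteopontin receptors, 0 were higher and 2 lower in the tumors, with *Itgb1* at -1.12 (SE 0.101) and *Itga9* at -0.93 (SE 0.142), but under TPM *Itgb1* was not called, *Itga9* was not called, and 3 of the 9 were called higher. With plain library totals both likewise were not called, and the *Itga9* call was lost in 13 of 24 alternatives, left-out libraries included. No receptor was called with either drug. Of the 6 other 14-3-3 genes, *Ywhag* (1.24, SE 0.11) and *Ywhah* (1.01, SE 0.144) rose in the tumors and 0 were called with a drug, though all 6 lay below all vehicle-treated tumors in the MLN0128 group (23.4% of all genes). Among 4 other keratins tested, *Krt20*, a keratin of gut epithelium, rose in the tumors (1.76, SE 0.190) and fell with everolimus (-2.03, SE 0.233). It was at 0, 0 and 0 FPKM in the NL livers, 5.21, 6.82 and 8.13 in vehicle tumors, 1.37, 1.39 and 2.49 in MLN0128 tumors and 0.275, 1.25 and 1.29 in everolimus tumors. Of 6 other SOX genes, *Sox12*, which belongs to the same subgroup as *Sox4*, rose by 1.97 (SE 0.193) and *Sox5* fell by 1.27 (SE 0.0930) in the tumors, and 0 were called with a drug. *Sox12* was at 6.06 to 9.10 FPKM in vehicle tumors, 7.69 to 11.7 in MLN0128 tumors and 10.7 to 18.3 in everolimus tumors, so it was not lower with either drug. Between MLN0128 and everolimus, 0 genes of these lists were called by treat.

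The sums of the lists moved as follows. The 27 other biliary genes had sums from 269 to 317 FPKM across normal livers, from 330 to 390 for vehicle, from 162 to 172 for MLN0128 and from 165 to 277 for everolimus. Both drug groups lay below all vehicle-treated tumors, and everolimus replicate 2, at 277, was the 1 drug-treated tumor within the range of normal liver. Abundant genes weigh most in such a sum, among them *Tm4sf4* (mean 127 FPKM with vehicle and 38.3 with MLN0128) and *Cldn4* (48.7 and 2.95). Of the 20 genes of the list that were tested, 13 had a negative and 7 a positive log2 difference with MLN0128 against vehicle. With everolimus 15 were negative and 5 positive. Marker sums of other cells are given next. Macrophage markers with MLN0128 lay below vehicle, and erythroid markers with everolimus lay above both other tumor groups. The other ranges given overlapped between tumor groups. Macrophage markers summed to 184 to 257 FPKM in vehicle tumors, 85.0 to 159 in MLN0128 tumors and 121 to 284 in everolimus tumors. Hepatocyte markers summed to 4241 to 6410 in vehicle tumors, 2243 to 4542 in MLN0128 tumors and 3480 to 8523 in everolimus tumors, and endothelial markers to 17.8 to 22.7, 15.3 to 20.7 and 16.7 to 26.0. Erythroid markers summed to 36.0 to 89.0 in vehicle tumors, 17.5 to 41.5 in MLN0128 tumors and 108 to 132 in everolimus tumors. The part of these other cells in the values of the 10 genes was not tested.

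**Figure D5:**
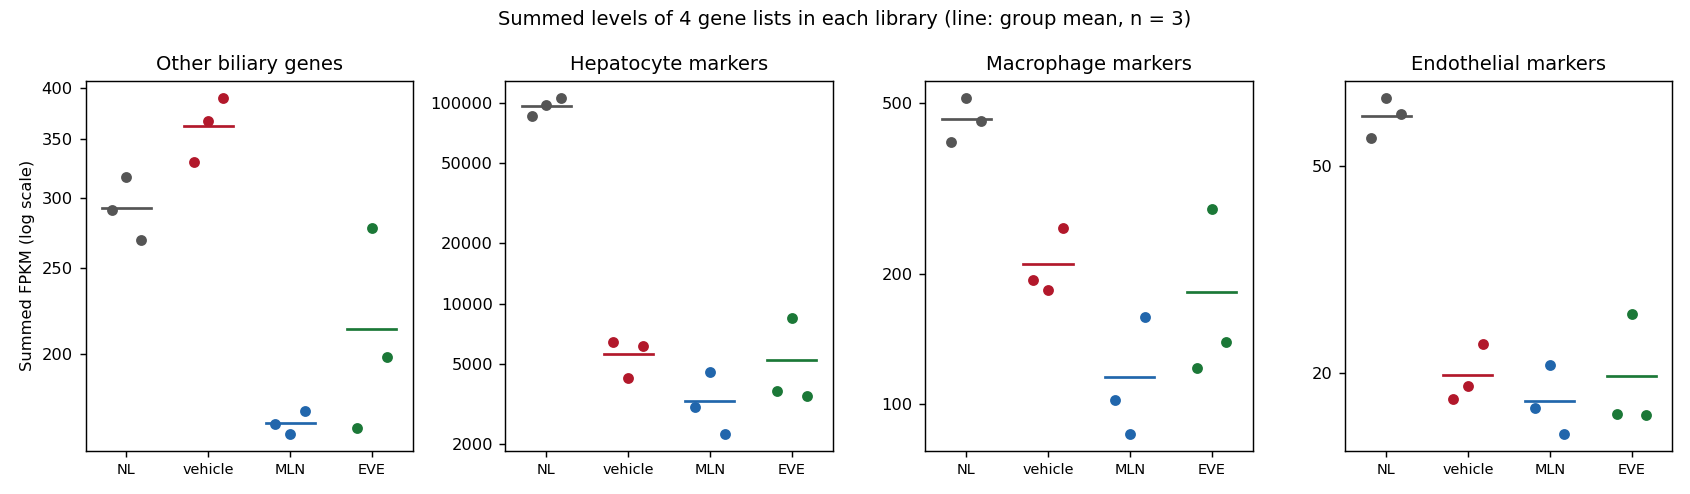
Summed FPKM on a log axis in each library for the 27 other biliary genes, 10 hepatocyte, 13 macrophage and 8 endothelial markers, with points for replicates 1 to 3 from left to right and a line for the arithmetic mean of each group (n = 3). Biliary sums, in which abundant genes such as *Tm4sf4* weigh most, are highest with vehicle (330 to 390), and everolimus replicate 2 is the highest everolimus library in all 4 panels.

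The genes whose levels were most like those of *Krt19* over the 12 libraries, by Pearson's r of log2(FPKM + 1), were *Gpx2* (0.994), *Asb11* (0.992), *Muc13* (0.990), *Calr4* (0.989) and *Serpinb9d* (0.987), the last from a family whose close copies can share reads. Each was at 0.391 FPKM or less in every library outside the vehicle group and passed the filter on low values only through that group. Their r thus sets the vehicle-treated tumors against libraries near 0, and nothing is read from its size. For *Sox9* the genes most alike were *Ly6e* (0.947), *Arhgef5* (0.945), *Anxa5* (0.945), *Cdc42ep5* (0.944) and *Prkx* (0.941). These are descriptions over libraries that share the same vehicle-treated tumors and scaling, and the 2 sets have no gene in common.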

How the data were processed

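The authors had RNA libraries sequenced by Novogene, counted reads per gene and deposited linear FPKM per library, rounded to 3 significant digits. The labels give the build GRCm38 and FastQC 0.11.7, and the aligner and the strand used in counting are not given in the sources used here. The 10 genes and all lists were chosen with earlier results of these data known. The named genes of a list are at most 4 called genes per comparison with the largest differences, and the nearest 5 genes are given for *Krt19* and *Sox9*. A gene that this rule names is not reported here.

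The FPKM were put on the log2 scale after adding 1. A gene entered the model if 3 or more of the 12 libraries reached 0.5 FPKM, which left 14397 genes and 9 of the 10. A single limma fit (version 3.58.1, R 4.3.3, intensity trend) held all libraries, and a call needed a Benjamini-Hochberg adjusted p below 0.05 from treat with a minimum fold of 1.5. The authors had used edgeR's glmTreat function on counts. Reads were recovered from FPKM and exon lengths of GENCODE M21, and 98.2% to 98.8% of values under 20 reads came within 0.1 of a whole read. The deposited FPKM also carried a library scaling, whose factors lay between 0.585 and 0.596 for normal livers and between 1.10 and 1.37 for tumors. The scripts were tested on simulated data. Alternatives covered the pseudocount, filter, scaling, test, replicate block and each library left out, and limma's voom on recovered reads was added after seeing the data.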

Additional observations from a re-analysis of the deposited data

How the results depend on the processing

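*Sox4* was called higher in tumors under all 24 alternatives. For the 3 tumor groups against normal liver, 2 of 9 genes were called. The count was 3 under TPM and 1 with no filter, with quantile normalization or with voom at the authors' scaling. It was 6 by the moderated test and 1 to 2 with a library left out. By voom with plain library totals it was 2, but *Krt19* was not among them (adjusted p = 0.0785, limma's treat after Benjamini-Hochberg correction). Over all genes, 2578 higher and 2822 lower became 7827 and 1085 under TPM, 7244 and 1610 by voom with plain library totals, while the moderated test gave 5756 and 5219. Leaving out a library gave 2278 to 2653 and 2387 to 2883. Directions reversed for *Cd24a* (0.41 under TPM, 0.17 with plain totals), *Spp1* (0.35 and 0.065) and *Prom1* (-0.12 at a pseudocount of 0.1, -0.12 with quantile normalization, -0.42 by voom at the authors' scaling, -0.010 to 0.10 with a library left out). The cause was not tested.

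For MLN0128 against everolimus, 0 of 9 genes were called under all 25 alternatives. Over all genes, 1 higher became 2 under TPM, 575 by the moderated test, 3 with MLN0128 replicate 3 as the single MLN0128 library, 0 with only the 6 drug libraries, 2 and 4 by voom at the authors' scaling and with plain totals, and 0 to 4 with a library left out. The 5 lower became 797 by the moderated test, 3 with only the drug libraries, 11 by voom at the authors' scaling and 2 to 14 with a library left out. Signs near 0 reversed for *Krt19* (0.12 under TPM, 0.31 with MLN0128 replicate 3 alone, -0.17 to 0.18 with a library left out), *Epcam* (-0.019 with quantile normalization, -0.038 by voom at the authors' scaling, -0.33 to 0.39), *Sfn* (0.28 with MLN0128 replicate 3 alone, -0.33 to 0.019) and *Krt23* (-0.43 to 0.016). The count of 6 genes below vehicle with everolimus was 6 to 10 with a library left out. It was 10 without everolimus replicate 2, the highest everolimus library for each gene. The share of all genes was not computed for these counts. The count of 8 below vehicle with MLN0128 was 6 under TPM. That of 8 with vehicle above normal liver was 9 under TPM. The share of all genes was not computed under TPM either, so these counts have no reading.

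Same-numbered libraries did not pair (correlations of their deviations from -0.29 to 0.15, over 0.1 in 1 of 18 pairs). With the replicate number as a block, 2522 genes were higher and 2765 lower in tumors and 2 of 9 were called, and 1 higher, 5 lower and 0 of 9 between the drugs. Depth limits *Krt7*, *Prom1* and *Krt19* outside the vehicle group, where libraries held as few as 4 reads.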
